A study of Mus musculus with 33 samples.

Results

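The genes described here make up the synthesis of cholesterol and of fatty acids. A list of 32 genes was taken, of which 7 encode enzymes of the mevalonate steps, 11 encode squalene and sterol enzymes, 4 encode regulators or a sterol carrier, and 10 act in the synthesis, desaturation, elongation, activation or esterification of fatty acids. A member counted as measured where a probe annotated to its current or older symbol was detected (p under 0.01) in 2 or more of that cell type's arrays. In macrophages 29 members were measured, out of 9161 genes, and Acat2, Mvk and Fdft1 had no probe in the annotation used. In fibroblasts 28 members were measured, out of 9109 genes: Acat2 had no probe, and Sc5d, Srebf1 and Acsl3 stayed below the filter. Altogether 31 members were measured in either cell type and 26 in both.

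Cholesterol is built from acetyl-CoA through mevalonate and isoprenoid units to squalene, which is closed to lanosterol and then trimmed to cholesterol. Most genes of the route are driven by SREBP2, the product of Srebf2, while SREBP1, the product of Srebf1, acts mainly on fatty acid genes. SCAP carries both factors from the endoplasmic reticulum to the Golgi for cleavage, and INSIG proteins hold them back when sterols are plentiful. In macrophages, oxysterols such as 25-hydroxycholesterol, made by the interferon-inducible enzyme CH25H, also keep the factors from being cleaved.

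RNA was measured on single-colour Illumina bead arrays of C57BL/6 mouse cells. The 23 macrophage arrays held bone marrow-derived macrophages (BMDM) grown in medium conditioned by L929 cells, a fibroblast line that secretes the macrophage growth factor M-CSF. They were wild type (WT), lacked the NF-kB subunit p50 (p50KO) or lacked the type I interferon receptor (IFNARKO). WT and p50KO BMDM received CpG DNA, bacterial lipopolysaccharide (LPS) or interferon beta (IFNb) for 1, 3 or 8 h, or stayed unstimulated, and IFNARKO BMDM were unstimulated or received LPS for 3 h. The 10 fibroblast arrays held primary embryonic fibroblasts (MEF): WT and p50KO cells unstimulated or with LPS for 1, 3 or 8 h, and WT cells of a second series unstimulated or with IFNb for 8 h. Every combination had 1 array, except that unstimulated WT cells had 2, of which 1 belonged to each series. Unstimulated p50KO BMDM were measured in the CpG series only, and the IFNb arrays of BMDM had no unstimulated arrays of their own and were set against those of the LPS series. Nothing in the labels ties the arrays to separate animals or cultures, and p-values then measure only the spread between these arrays, which may be technical.

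Several facts of the arrays bear on all values. Total signal was 13100000 to 15020000 on the CpG-series arrays and 7433000 to 12450000 on the LPS and IFNb arrays of WT and p50KO BMDM. On these 2 sets the summed level of 7 granulocyte markers ran from 1050 to 2620 and from 4160 to 16700. In BMDM all 5 macrophage markers with a probe were measured, with a summed level of 41600 to 60900 over all arrays, whereas of the fibroblast markers only Col1a2 was, at 20.4 to 33.9. In MEF all 8 fibroblast markers were measured, with sums of 22700 to 50700. The macrophage markers Adgre1, Lyz2 and Cd14 were measured there too, with sums of 3440 to 5940 on the LPS-series arrays and of 10100 to 12500 on the IFNb series, and their part in the MEF results was not tested. The WT MEF arrays of the LPS series detected 8266 to 8959 probes, the p50KO arrays 11735 to 12389. Of the 3 p50KO BMDM arrays labelled LPS, those of 1 and 3 h went against their times. Over all genes the 1 h array lay nearer to WT LPS 3 h (root mean square log2 difference 0.34) than to WT LPS 1 h (0.73), and the 3 h array nearer to WT LPS 8 h (0.43) than to WT LPS 3 h (0.74). The responses in BMDM that take in these 3 arrays are therefore given without them as well. The knockout itself was not checked, because the p50 gene was not analysed here.

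LPS lowered the sterol genes of macrophages. Over both genotypes, 13 of 29 members fell at 8 h and none rose, where 18.2% of all genes tested were called lower. They comprised Mvd and Fdps of the mevalonate steps, 6 sterol enzymes (Sqle, Lss, Msmo1, Hsd17b7, Ebp and Dhcr7), the sterol carrier gene Stard4, and 4 fatty acid genes (Acly, Elovl6, Fads1 and Acsl3). The median log2 difference was -0.85 over the members and -0.09 over all genes. At 3 h 8 members fell, where 7.51% of genes were called lower, and the medians were -0.67 and -0.12. At 1 h no member passed the test, with 0 at an unadjusted p under 0.05 and 1.3% of genes called in either direction. Here and below, shares of genes called are at an adjusted p under 0.05. Counts of members at an unadjusted p have no share of all genes at that threshold and cannot be set against those shares. The differences are log2 values from limma with Benjamini-Hochberg adjustment over all genes, called at an adjusted p under 0.05, and their errors are standard errors (SE) of the fit. From expression in bulk, fewer cells that carry a transcript cannot be told apart from less transcript per cell.

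Stard4, which encodes a carrier that moves cholesterol between membranes, had the largest difference. Its level, a normalized log2 intensity as are all levels here, was 9.07 in unstimulated WT cells and 8.64, 7.42 and 5.12 after 1, 3 and 8 h of LPS. In p50KO cells it was 7.05, 5.29 and 5.19 at these times. The 2 arrays at 8 h therefore lay at a low plateau that the p50KO array labelled 3 h had also reached. Stard4 fell by 2.56 ± 0.63 (SE) on the log2 scale at 3 h (adjusted p = 0.0237) and by 3.76 ± 0.63 at 8 h (adjusted p = 0.00206).

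Among the sterol enzymes Sqle, the squalene epoxidase and a rate-controlling step, moved furthest. Its level was 10.75 unstimulated and 10.61, 10.03 and 7.98 with LPS in WT, and 10.10, 7.97 and 8.01 in p50KO. Sqle fell by 2.73 ± 0.58 at 8 h (adjusted p = 0.00502), and its second detected probe differed by -3.00. At 3 h the WT and p50KO arrays were far apart, and the difference over both did not pass the test.

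Lss, the synthase that closes the ring to lanosterol, was at 8.46 unstimulated, at 8.03, 7.59 and 7.58 with LPS in WT, and at 7.59, 6.89 and 6.97 in p50KO. All 6 LPS arrays were below the unstimulated array, and Lss fell by 1.18 ± 0.35 at 3 h (adjusted p = 0.0446) and by 1.14 ± 0.35 at 8 h (adjusted p = 0.0264). Msmo1, an oxidase that removes methyl groups from the sterol nucleus, went from 10.27 to 9.95, 9.44 and 9.18 in WT and was at 9.51, 8.73 and 9.34 in p50KO. It fell by 1.20 ± 0.32 at 3 h and by 1.03 ± 0.32 at 8 h, with adjusted p-values of 0.0312 and 0.0293.

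Hsd17b7, a ketoreductase of the same demethylation, was at 9.82 unstimulated, at 9.41, 9.07 and 8.57 with LPS in WT, and at 9.08, 8.07 and 8.63 in p50KO. It fell by 1.27 ± 0.35 at 3 h and by 1.24 ± 0.35 at 8 h (adjusted p = 0.0341 and 0.0182). Dhcr7, the reductase that completes cholesterol in one branch of the route, was at 6.90 unstimulated, at 6.42, 6.05 and 5.09 with LPS in WT, and at 5.95, 5.04 and 5.05 in p50KO. Both 8 h arrays were not above background for Dhcr7, so that its level was at least 3.46-fold lower there (adjusted p = 0.00226). Such bounds set the brighter group's mean against, on each dim array, the higher of the probe's own value and the lowest signal of any probe above background. Of the other sterol enzymes Ebp, a sterol isomerase, fell by 0.62 ± 0.20 at 8 h, and Cyp51, Tm7sf2, Nsdhl and Sc5d did not pass the test at any time.

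In the mevalonate steps, Mvd and Fdps fell at 8 h. Mvd, the decarboxylase that yields isopentenyl diphosphate, was at 7.69 unstimulated, at 7.28, 6.98 and 6.50 with LPS in WT, and at 6.67, 6.42 and 5.47 in p50KO. Its fall at 8 h was 1.72 ± 0.49 (adjusted p = 0.0185). Fdps, the farnesyl diphosphate synthase at the branch to prenylation, was at 11.07 unstimulated, at 10.83, 10.69 and 10.01 with LPS in WT, and at 10.55, 9.94 and 9.46 in p50KO, and it fell by 1.38 ± 0.42 at 8 h (adjusted p = 0.0241). Hmgcs1, Pmvk and Idi1 did not pass the test.

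The fatty acid genes that fell belong to elongation, desaturation, activation and citrate cleavage. Elovl6, which elongates palmitate, was at 6.90 unstimulated, at 6.77, 4.97 and 4.35 with LPS in WT, and at 5.36, 4.39 and 4.61 in p50KO. It was not above background on the 4 arrays at 3 and 8 h, and was at least 3.3-fold lower at 3 h (adjusted p = 0.0156) and at least 3.46-fold lower at 8 h (adjusted p = 0.00362). Acsl3, an acyl-CoA synthetase of lipid droplets, went from 7.38 to 7.13, 5.83 and 4.64 in WT and was at 6.07, 5.06 and 5.48 in p50KO. The WT array at 8 h and the p50KO array at 3 h were not above background for Acsl3. It fell by 1.95 ± 0.44 at 3 h (adjusted p = 0.0189) and by 2.33 ± 0.44 at 8 h (adjusted p = 0.00324).

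Fads1, the delta-5 desaturase on the way to arachidonate, was at 12.06 unstimulated, at 11.69, 11.16 and 9.58 with LPS in WT, and at 11.18, 9.47 and 10.36 in p50KO. It fell by 1.73 ± 0.51 at 3 h and by 2.07 ± 0.51 at 8 h (adjusted p = 0.0428 and 0.00937). Acly, the ATP citrate lyase that supplies cytosolic acetyl-CoA, fell by 0.64 ± 0.21 at 8 h. The fatty acid synthase Fasn, with detection on 7 of 23 arrays, and Acaca, the acetyl-CoA carboxylase, did not pass the test.

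Dgat2, which adds the last acyl chain of triglycerides, climbed with LPS on the WT arrays. Its level was 4.68 unstimulated and 5.41, 7.50 and 8.63 with LPS in WT, and 5.08, 5.42 and 4.90 in p50KO, so that the genotypes parted at 3 and 8 h. The unstimulated arrays and the p50KO arrays at 1 and 8 h were not above background for Dgat2. Over both genotypes it did not pass the test against unstimulated cells. The IFNARKO array with LPS at 3 h was at 6.61, against 4.42 unstimulated.

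**Figure D1:**
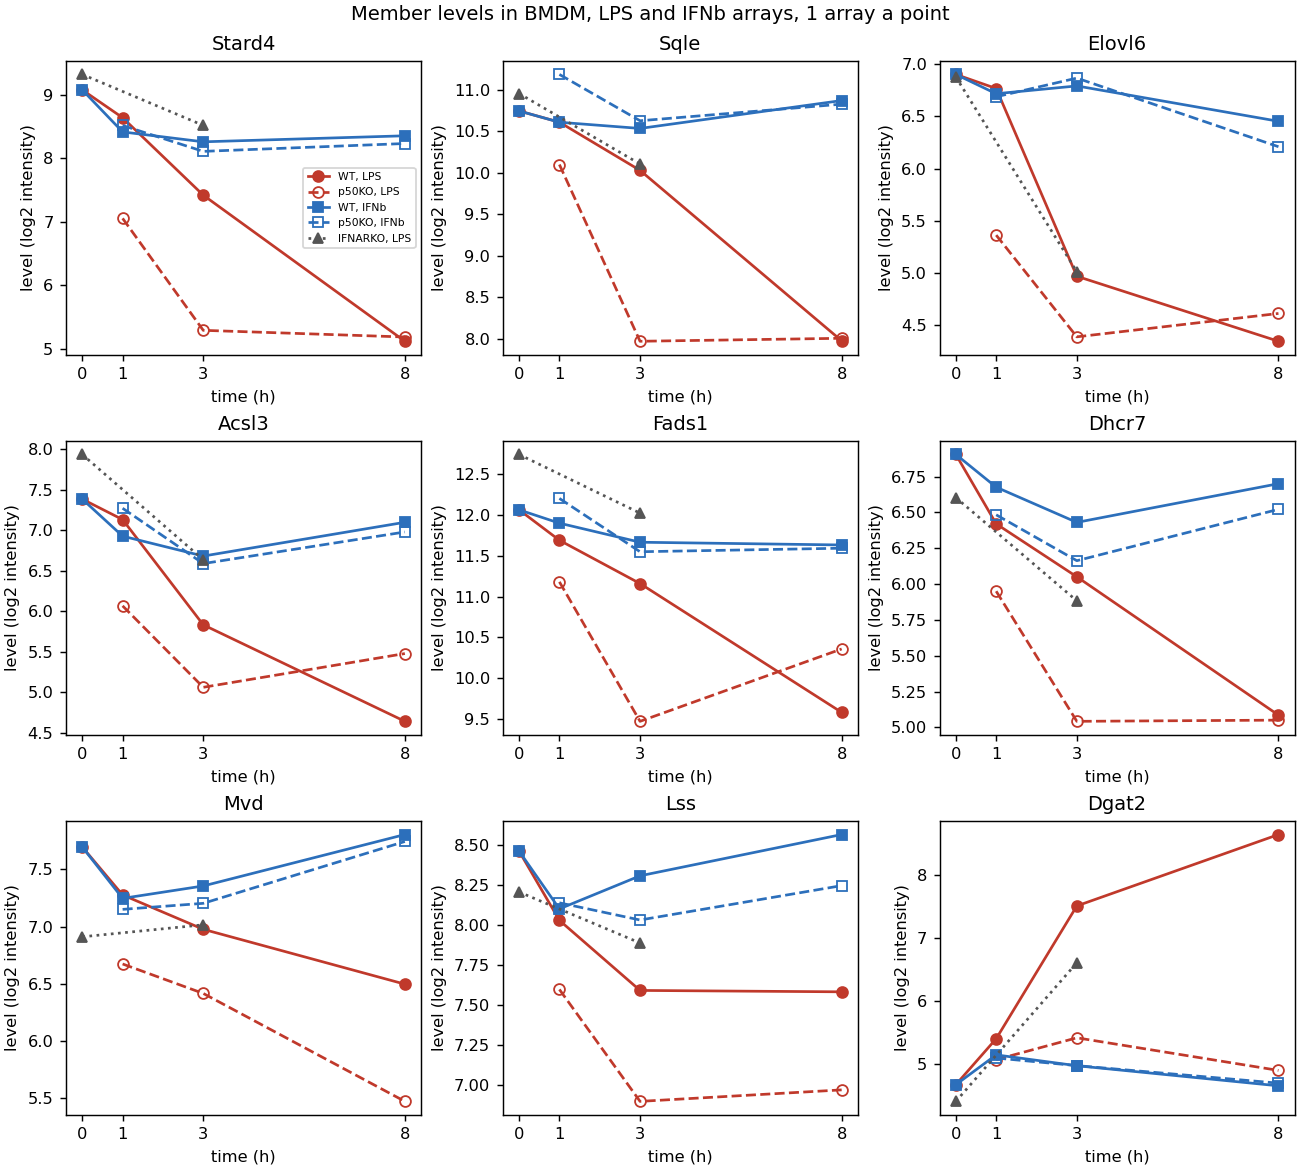
Levels (normalized log2 intensity, vertical axis) of 9 members against time with the agent (h, horizontal axis) in BMDM, 1 array a point, for WT, p50KO and IFNARKO cells with LPS or IFNb. Stard4 went from 9.07 to 5.12 with LPS in WT and stayed at 8.26 to 8.41 with IFNb, and Dgat2 climbed to 8.63 on the WT LPS array at 8 h while the p50KO array was at 4.90.

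Without the 3 p50KO LPS arrays, 16 members were lower and 1 higher at 8 h, and 10 lower and 1 higher at 3 h. At 3 h the count was 5 in the authors' own normalized values and 2 with no filter on dim probes, and with no term for the array series it was 21 at either time. No member passed the test between LPS at 8 h and LPS at 3 h over both genotypes, where 2 had an unadjusted p under 0.05 and 0.0327% of genes were called, but 7 did without the 3 p50KO arrays. Here and below, the share of all genes called under an alternative setting is not given unless stated. Such counts show only how the calls depend on the setting, not whether the members changed beyond other genes.

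Many members were correlated with one another across arrays. Over the 13 WT and p50KO arrays of the LPS and IFNb labels, the Pearson correlation of each sterol enzyme with the mean of the other sterol enzymes was 0.97 for Cyp51, 0.96 for Hmgcs1 and 0.96 for Sqle. Among the others Stard4 correlated at 0.96 and Fads1 at 0.92 with the mean of all sterol enzymes. Pmvk at -0.08, Tm7sf2 at -0.13, Fasn at -0.03 and Dgat2 at -0.42 did not follow these means. Of the sterol enzymes, Nsdhl at 0.41 and Sc5d at 0.22 followed only weakly. These values are descriptions across arrays that share treatments, processing and the unstimulated array. Members called lower on these same LPS arrays correlate across them largely for that reason, and the correlation of other genes is not given.

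Because these genes moved together, the promoters of some are shown. RefSeq promoters of build GRCm38.p6 were matched for 24 of the 32 members (29 promoters), and the 250 bases before each start were searched on both strands. The NF-Y box CCAAT was found in 20 of 29 member promoters (69%), against 33.8% of 32851 promoters of all genes. The NF-kB-type pattern, GGGA and CC with any 4 bases between them, was in 12 (41.4%, against 17.6%), the E-box CACGTG in 4 (13.8%, against 6.02%), the sterol regulatory pattern TCACNCCAC in 1 (3.45%, against 1.05%) and the interferon-type pattern, GAAA repeated after any 2 bases, in 1 (3.45%, against 2.98%). No test was made, and a match describes letters, not a bound site.

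Stretches before the start are printed for 5 genes that LPS lowered against unstimulated cells or against IFNb, chosen because they hold these matches. Capitals mark every match, and the sequence runs 5′ to 3′ on the gene's strand. Hmgcs1 (chr13:119690171-119690350, plus strand) holds the sterol regulatory pattern, 3 NF-Y boxes of which 2 lie in the stretch, and 2 NF-kB-type matches. Mvd (chr8:122443423-122443522, minus strand) has an NF-kB-type match between a pair of NF-Y boxes. Lss (chr10:76531505-76531604, plus strand) has 1 NF-Y box, Msmo1 (chr8:64733579-64733748, minus strand) has 3, and Hsd17b7 (chr1:169969206-169969375, minus strand) has 3 and an E-box.
Hmgcs1: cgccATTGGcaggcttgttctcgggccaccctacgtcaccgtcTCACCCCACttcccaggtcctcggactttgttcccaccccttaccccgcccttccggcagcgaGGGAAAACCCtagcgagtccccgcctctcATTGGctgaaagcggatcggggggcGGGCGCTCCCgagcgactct
Mvd: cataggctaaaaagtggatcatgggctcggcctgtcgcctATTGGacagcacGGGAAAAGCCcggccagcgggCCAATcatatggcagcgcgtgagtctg
Lss: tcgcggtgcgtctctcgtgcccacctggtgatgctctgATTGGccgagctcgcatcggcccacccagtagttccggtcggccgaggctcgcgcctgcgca
Msmo1: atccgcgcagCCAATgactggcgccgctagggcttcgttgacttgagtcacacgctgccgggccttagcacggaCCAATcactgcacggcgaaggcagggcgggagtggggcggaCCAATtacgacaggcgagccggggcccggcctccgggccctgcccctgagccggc
Hsd17b7: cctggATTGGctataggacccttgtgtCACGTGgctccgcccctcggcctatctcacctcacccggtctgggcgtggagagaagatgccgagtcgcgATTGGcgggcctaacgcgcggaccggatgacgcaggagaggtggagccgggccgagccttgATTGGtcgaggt

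With IFNb no member passed the test in macrophages at 1, 3 or 8 h, with 0 at an unadjusted p under 0.05 each time, and the shares of all genes called were 0%, 0.0327% and 0%. Without the 3 p50KO LPS arrays 2 members were lower at 3 h. Stard4 was at 8.41, 8.26 and 8.35 after 1, 3 and 8 h of IFNb in WT, and at 8.52, 8.11 and 8.23 in p50KO. All 6 values lay between the unstimulated level of 9.07 and the 8 h LPS levels. Sqle was at 10.61, 10.53 and 10.87 in WT and at 11.19, 10.63 and 10.83 in p50KO, which spanned its unstimulated 10.75. LPS and IFNb are both set against the same 1 unstimulated WT array.

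Set directly against IFNb, LPS gave lower levels of most members at 8 h. Of 29 members 18 were lower and Dgat2 was higher, where 24% of all genes were lower and 17.4% were higher. The 18 comprised 3 mevalonate enzymes, 7 sterol enzymes, Srebf2, Insig1 and Stard4, and 5 fatty acid genes. Stard4 differed by -3.14 ± 0.51 (adjusted p = 0.000544) and Sqle by -2.86 ± 0.47 (adjusted p = 0.000587). Acsl3 differed by -1.98 ± 0.35, Mvd by -1.79 ± 0.39, Fads1 by -1.64 ± 0.41, Fdps by -1.45 ± 0.34 and Cyp51, the lanosterol demethylase, by -1.43 ± 0.44. Srebf2 itself differed by -1.20 ± 0.36 (adjusted p = 0.0187). Its WT levels of 8.45 with LPS and 9.10 with IFNb at 8 h were closer together than the p50KO levels of 7.23 and 8.98. Elovl6 was at least 2.33-fold and Dhcr7 at least 2.83-fold lower with LPS, and Dgat2 was at least 3.37-fold higher (adjusted p = 0.0454), of which the WT array alone was above background.

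At 3 h 7 members were lower with LPS than with IFNb, where 7.49% of genes were. Elovl6 was at least 3.14-fold lower, Stard4 differed by -1.83 ± 0.51 and Sqle by -1.58 ± 0.47, and Acsl3, Msmo1, Hsd17b7 and Lss followed with -1.19 to -0.93. Without the 3 p50KO LPS arrays 3 members were lower and 1 higher. The count was 4 without the unstimulated WT array of the CpG series or without a term for the series, 2 in the authors' values or with no filter, and 1 without all CpG-labelled arrays.

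**Figure D2:**
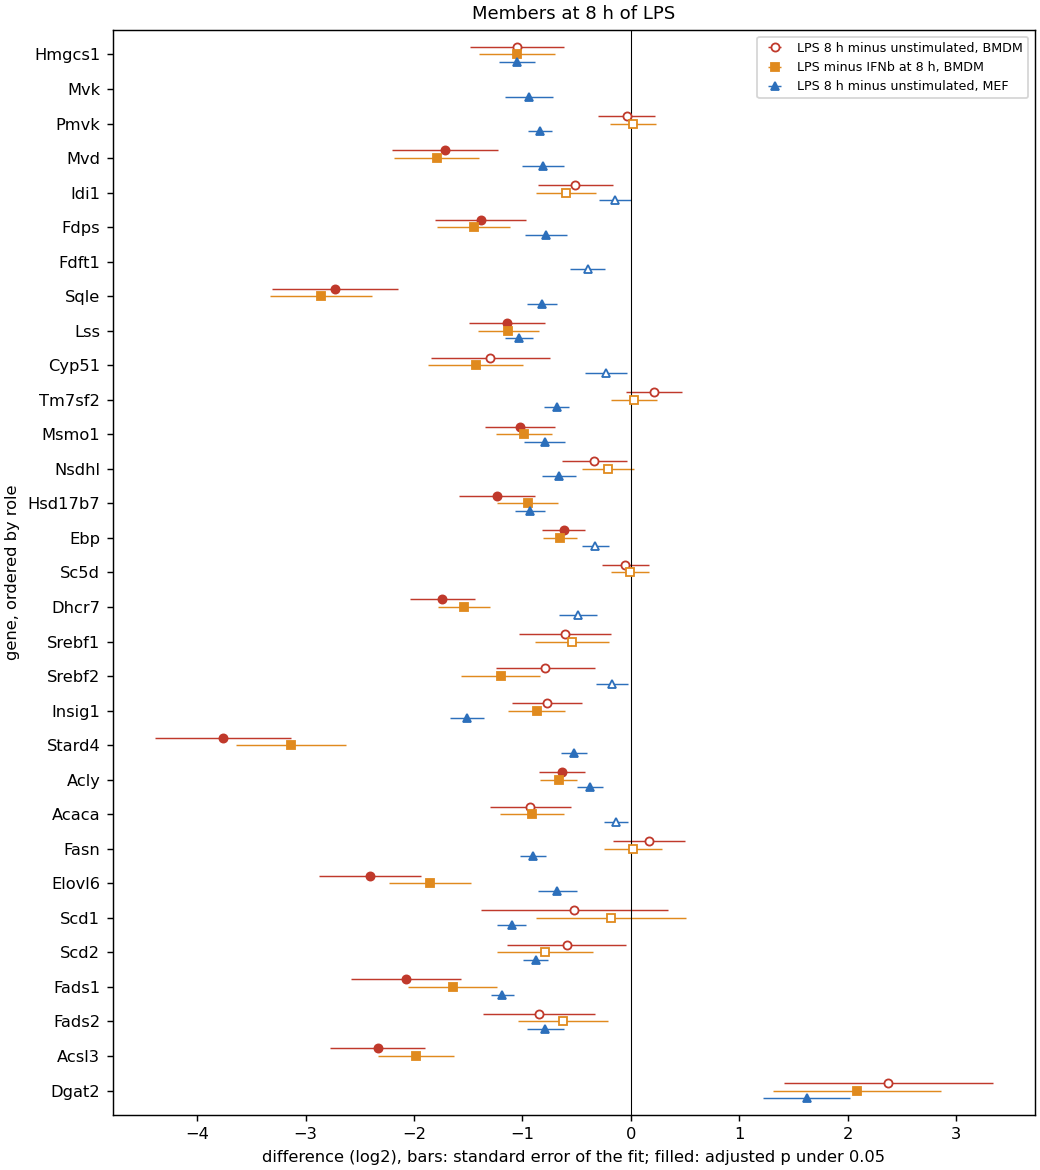
Log2 differences (horizontal axis) of every measured member, ordered by role (vertical axis), for LPS 8 h minus unstimulated in BMDM, LPS minus IFNb at 8 h in BMDM, and LPS 8 h minus unstimulated in MEF, with bars of 1 standard error of the fit and filled symbols at an adjusted p under 0.05. Most points lie left of 0. Against unstimulated BMDM, Stard4 lies at -3.76 and Sqle at -2.73, and against IFNb they lie at -3.14 and -2.86, while Dgat2 lies to the right.

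CpG DNA, like LPS, is sensed by a Toll-like receptor. With CpG no member passed the test at 1, 3 or 8 h (0% of genes called at 1 h, 0.0546% at 3 h and 0.218% at 8 h), with 0 at an unadjusted p under 0.05 each time. Stard4 was at 8.91, 8.91, 9.05 and 8.91 in unstimulated WT cells and after 1, 3 and 8 h, and Sqle at 11.40, 11.43, 11.57 and 11.50. Taken each against its own series, LPS and CpG differed at 8 h for Stard4, by -3.51 ± 0.81 (adjusted p = 0.0423), and for Dhcr7, by -1.72 ± 0.38 (adjusted p = 0.0406), where 1.36% of genes were lower and 15 members had an unadjusted p under 0.05. Both 8 h LPS arrays of Dhcr7 were not above background. At 3 h no member passed (0.349% of genes called, 12 members at an unadjusted p under 0.05). The unadjusted counts at 8 h and 3 h have no matching share of all genes, so they show no excess over it. Without the 3 p50KO LPS arrays the members called were 15 at 8 h and 6 at 3 h, and with no series term 23 and 22, without the matching shares of all genes. None passed at 8 h with no filter or without the unstimulated WT array of the CpG series.

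The p50 difference was tested over all conditions and for each agent. Over 10 matched conditions no member passed the test (3 at an unadjusted p under 0.05, 0.48% of all genes called). On the CpG-labelled arrays 4 members were higher in p50KO, where 0.295% of genes were. An unadjusted p under 0.05 was reached by 13 members, with no share of all genes at that threshold. Scd1 and Scd2 are stearoyl-CoA desaturases that make oleate, Fads2 is the delta-6 desaturase, and Nsdhl is a sterol dehydrogenase of the demethylation steps. The members' median was 0.38, against -0.02 over all genes.

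Scd1 was at 5.65, 5.82, 6.03 and 6.44 in WT cells unstimulated and after 1, 3 and 8 h of CpG, and at 8.08, 8.00, 8.43 and 8.42 in p50KO. The difference with CpG was 2.19 ± 0.12 (adjusted p = 3.233e-05). It was already 2.43 between the unstimulated arrays, a value with no test. Scd2 was at 5.62, 5.94, 6.12 and 6.47 in WT and at 6.55, 7.25, 7.69 and 7.35 in p50KO, a difference of 1.25 ± 0.19 (adjusted p = 0.0193). For both genes every p50KO array of the CpG series lay above every WT array, which follows largely from the test that called them and adds no support.

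Fads2 was at 5.42, 5.43, 5.50 and 5.92 in WT and at 6.25, 6.24, 6.94 and 7.08 in p50KO, and differed by 1.14 ± 0.17 (adjusted p = 0.0199). Nsdhl was at 6.86, 7.14, 7.17 and 7.20 in WT and at 7.67, 7.64, 7.96 and 8.31 in p50KO, and differed by 0.80 ± 0.14 (adjusted p = 0.0431). Its 3 other probes differed by 0.50 to 0.80. The genotypes did not overlap in either gene, which again follows largely from the test that called them. The p50KO levels at 8 h were the highest of the series in both. On the WT and p50KO LPS and IFNb arrays Scd1 stayed at 4.30 to 4.59 and was not above background on any of these 13 arrays. These arrays also enter the pooled error of its difference with CpG.

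Granulocyte markers moved with this difference: their summed level was 1050 to 1340 on the WT arrays and 1800 to 2620 on the p50KO arrays of the CpG series, with Cd79b, a B-cell marker, at 93.3 to 105 and 113 to 172. Their part in the result was not tested. Only 1 member passed when the 1 h, the 3 h or the 8 h arrays were left out, and 12 were higher without the 3 p50KO LPS arrays or without all LPS arrays, as well as 7 in the authors' values.

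**Figure D3:**
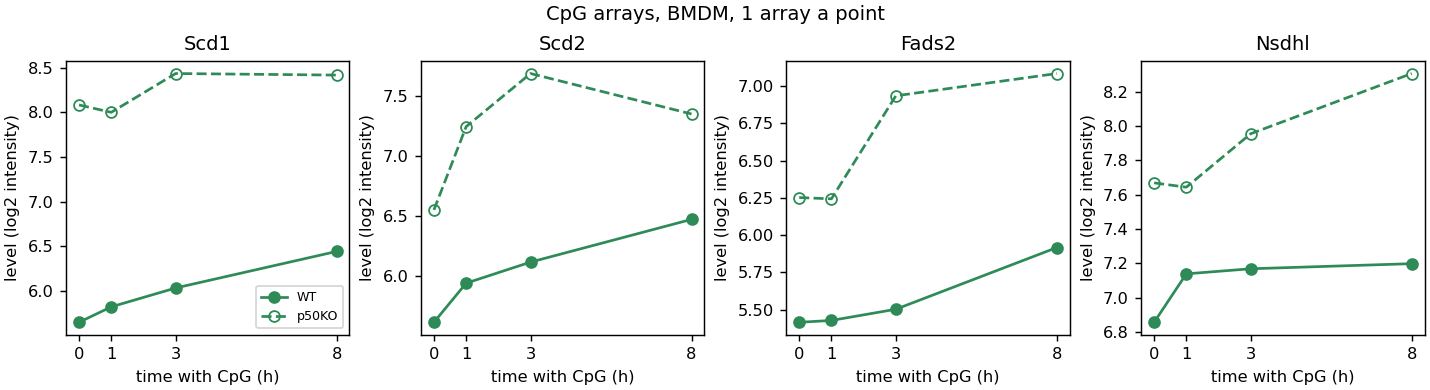
Levels (normalized log2 intensity, vertical axis) of Scd1, Scd2, Fads2 and Nsdhl against time with CpG (h, horizontal axis) in WT and p50KO BMDM of the CpG series, 1 array a point, each panel with its own axis range. In all 4 panels the p50KO points lie above the WT points, also at 0 h.

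On the LPS-labelled arrays 7 members were lower in p50KO, where 3.97% of all genes were. They were the mevalonate enzymes Hmgcs1 (-0.61 ± 0.13), Mvd (-0.73 ± 0.13) and Fdps (-0.53 ± 0.12), the sterol enzyme Lss (-0.58 ± 0.13), Srebf1 (-0.76 ± 0.15), Stard4 (-1.21 ± 0.32) and Dgat2 (-2.05 ± 0.46). The adjusted p-values ran from 0.0136 for Mvd to 0.0495 for Stard4. The errors are pooled over the arrays of all agents and do not measure the spread over these LPS times. Stard4 was at 8.64, 7.42 and 5.12 in WT and at 7.05, 5.29 and 5.19 in p50KO, so that it was not lower in p50KO at 8 h. Hmgcs1, the synthase that precedes mevalonate, was at 11.85, 11.39 and 11.15 in WT and at 11.25, 10.54 and 10.77 in p50KO. Srebf1 was at 5.62, 5.67 and 5.59 in WT and at 5.27, 4.56 and 4.78 in p50KO. The p50KO arrays were not above background at 3 and 8 h for Srebf1, nor at 1 and 8 h for Dgat2, so that these fitted differences rest partly on arrays at the floor.

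These calls rest on the 3 p50KO LPS arrays, of which those of 1 and 3 h went against their labelled times. Without the 3 h arrays no member passed, and without the 1 h arrays 2 did. Over the members the p50KO 1 h array lay 0.56 from WT LPS 1 h and 0.49 from WT LPS 3 h in root mean square log2 difference. The p50KO 3 h array lay 1.00 from WT LPS 3 h and 0.71 from WT LPS 8 h. A difference between genotypes at the same time and a shift in time cannot be told apart on these arrays. The WT levels of Dgat2 climbed with time, while its p50KO levels stayed at 4.90 to 5.42 at all 3 labelled times.

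With IFNb no member differed by the test (0.164% of genes called, 0 members at an unadjusted p under 0.05). The p50 difference itself was higher with CpG than with LPS for 4 members, where 0.262% of genes were. They were Mvd (1.29 ± 0.18), Hmgcs1 (1.22 ± 0.19), Fdps (1.18 ± 0.17) and Scd1, with adjusted p-values of 0.00134 to 0.0295. Hmgcs1 was at 11.96, 12.19 and 11.78 with CpG in WT and at 12.49, 12.81 and 12.44 in p50KO, the opposite sign of its LPS arrays. Before stimulation the p50KO array of the CpG series was already above its WT array, by 0.68 for Hmgcs1, 0.96 for Mvd and 0.66 for Fdps, and the median over the members was 0.43, values with no test. The LPS side of this contrast rests on the p50KO arrays whose times were in doubt. None of the 4 passed without the 1 h or the 3 h arrays, 1 did without the 8 h arrays, and 7 or 8 members passed in the authors' values or with the mean of a gene's probes. Scd1 alone passed between CpG and IFNb (0.0437% of genes higher). Since Scd1 was not above background on any LPS or IFNb array of WT and p50KO cells, its contrasts with both agents restate its difference on the CpG arrays and show nothing about LPS or IFNb. Between LPS and IFNb no member passed, with 0% of genes called. An unadjusted p under 0.05 was reached by 8 members, with no share of all genes at that threshold.

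**Figure D4:**
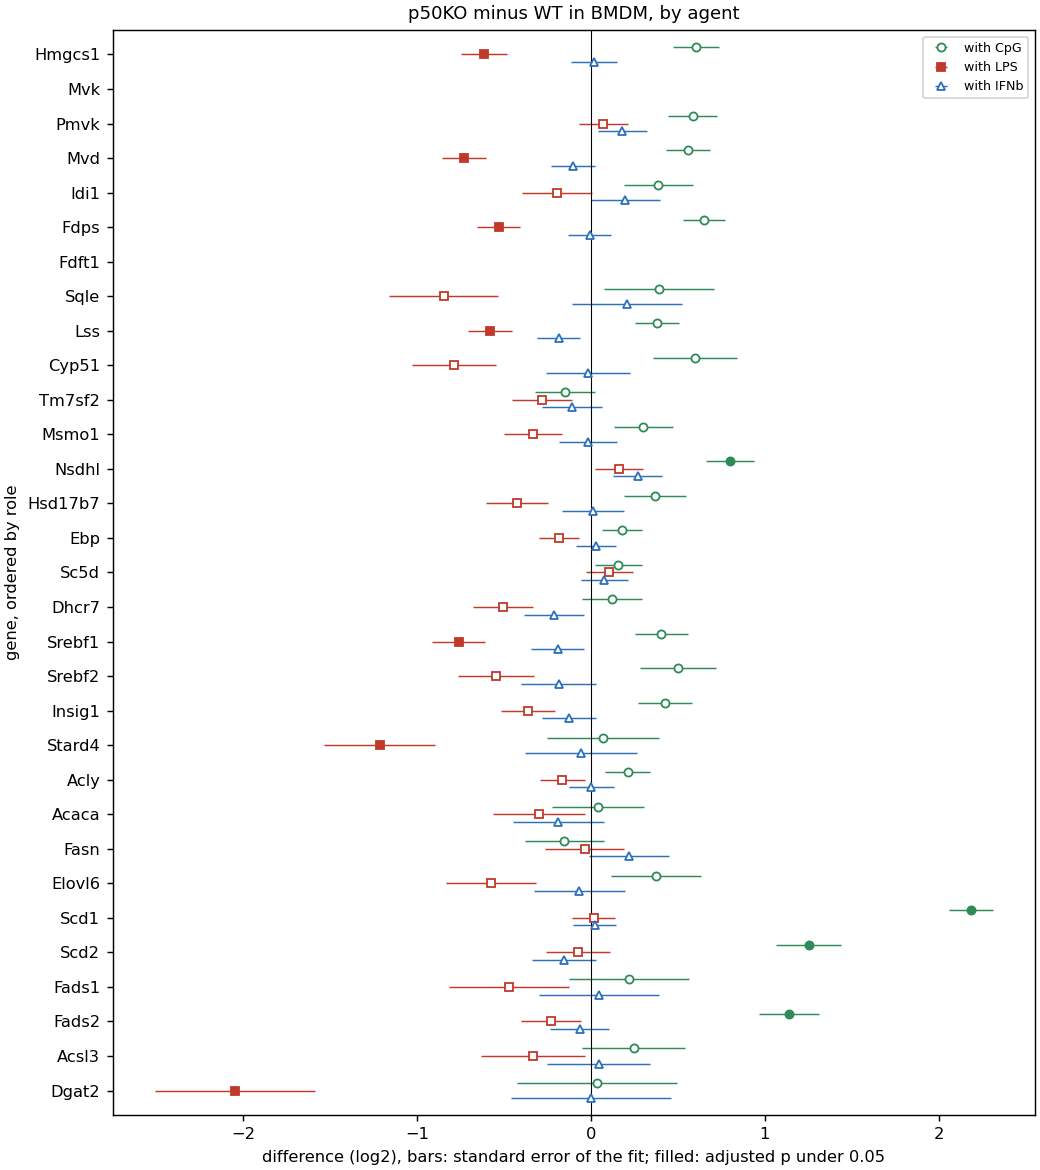
Log2 difference between p50KO and WT BMDM (horizontal axis) for every member, ordered by role (vertical axis), as the mean over 1, 3 and 8 h of CpG, LPS or IFNb, with bars of 1 standard error of the fit and filled symbols at an adjusted p under 0.05. Mvk and Fdft1 have no value in BMDM. Scd1 stands at 2.19 with CpG and Dgat2 at -2.05 with LPS, and the IFNb points lie near 0.

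Cells without the interferon receptor carried higher levels of 6 members over the unstimulated and LPS 3 h conditions, where 18.9% of genes were higher, so that the count is near the background and not a result about the members. In the fit these were Idi1, the isopentenyl diphosphate isomerase (1.30 ± 0.26, adjusted p = 0.00341), Fads1 (1.25 ± 0.39), Msmo1 (1.06 ± 0.25), Acaca (0.94 ± 0.28), Acsl3 (0.92 ± 0.33) and Sc5d, a sterol desaturase that was at least 1.13-fold higher. With no term for the series 2 members passed. The fit takes its LPS 3 h level from the p50KO array of that label as well, and its values were larger than the differences between the arrays themselves. Idi1 was at 7.90 and 7.80 on the IFNARKO arrays, against 6.86 and 6.83 on the WT arrays of the same conditions, differences of 1.04 and 0.97. The differences between arrays, unstimulated and with LPS, were 0.68 and 0.86 for Fads1, 0.71 and 0.95 for Msmo1, 0.70 and 0.65 for Acaca, and 0.55 and 0.80 for Acsl3. Without the 3 p50KO LPS arrays the fitted differences were 1.00 for Idi1, 0.77 for Fads1, 0.83 for Msmo1, 0.68 for Acaca and 0.68 for Acsl3, and 8 members were higher and 2 lower, where 25% of genes were higher and 20% lower.

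The response of IFNARKO cells to LPS at 3 h was 1 array against 1 and so had no test. In WT 3 members were at least 2-fold lower (6.28% of genes) and in IFNARKO 2 were (3.81%). Acsl3 differed by -1.55 in WT and by -1.30 in IFNARKO. Elovl6 was not above background on the WT array with LPS. Stard4, at 9.32 and 8.52 on the IFNARKO arrays, differed by -0.80, against -1.66 in WT. For Dgat2 neither unstimulated array was above background, and its levels with LPS were 7.50 in WT and 6.61 in IFNARKO.

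In fibroblasts LPS lowered members of every role at 8 h. Of 28 members 20 fell and Dgat2 rose, where 23.8% of genes fell and 12.6% rose, and the medians were -0.79 over the members and -0.10 over all genes. The 20 comprised 5 of 6 mevalonate enzymes, 6 of 10 sterol enzymes, 2 of 3 regulators or carriers and 7 of 9 fatty acid genes. At 3 h Lss (-0.62 ± 0.13), Insig1 (-0.55 ± 0.16) and Stard4 (-0.50 ± 0.12) fell, where 11.9% of genes did, a count near that background and not a result about the members. At 1 h none passed (0.582% of genes called, 3 members at an unadjusted p under 0.05).

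Insig1, which encodes a protein that retains SCAP, was at 9.30 unstimulated and at 9.61, 8.93 and 7.67 with LPS in WT, and at 8.19, 8.63, 7.46 and 6.80 in p50KO. It fell by 1.51 ± 0.16 at 8 h (adjusted p = 0.000518). In both genotypes the 1 h array was above and the 8 h array below the unstimulated one. Lss was at 9.57, 9.58, 9.03 and 8.40 in WT and at 8.94, 8.84, 8.25 and 8.04 in p50KO, and fell by 1.03 ± 0.13 (adjusted p = 0.00127).

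Stard4, which had the largest difference in BMDM, had one of the smaller ones in MEF. It was at 9.79, 10.04, 9.32 and 9.16 in WT and at 9.95, 10.41, 9.43 and 9.53 in p50KO, and fell by 0.52 ± 0.12 at 8 h (adjusted p = 0.0133). Sqle was at 12.55, 12.50, 12.33 and 11.65 in WT and at 12.24, 12.20, 11.68 and 11.50 in p50KO, and fell by 0.82 ± 0.14. The difference between the cell types was not tested, since they were measured on different array platforms and normalized apart. Some members, among them Msmo1 and Fasn, were also read by different probes in BMDM and MEF.

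Fatty acid genes fell to a like extent in MEF: Fads1 by 1.19 ± 0.10, Scd1 by 1.10 ± 0.13, Fasn by 0.90 ± 0.12 and Scd2 by 0.88 ± 0.11. Scd1 was at 11.84, 11.68, 11.65 and 10.55 in WT and at 11.41, 11.31, 11.21 and 10.50 in p50KO, so that the fall lay between 3 and 8 h. Dgat2 was at 7.21, 7.37, 7.52 and 9.70 in WT and at 6.22, 6.35, 6.29 and 6.97 in p50KO, and rose by 1.62 ± 0.40 (adjusted p = 0.0184). Between 3 and 8 h 11 members fell, where 7.28% of genes did.

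Of the 26 members measured in both cell types, 10 fell at 8 h of LPS in both: Mvd, Fdps, Sqle, Lss, Msmo1, Hsd17b7, Stard4, Acly, Elovl6 and Fads1. They were 76.9% of the 13 that fell in BMDM and 50% of the 20 that fell in MEF. The 13 include Acsl3, not measured in MEF, and the 20 include Mvk, not measured in BMDM. The counts of all genes that follow are limited to genes tested in both cell types. Of the 6809 genes tested in both cell types 637 fell in both, which were 46.5% of the 1371 that fell in BMDM and 38.9% of the 1638 that fell in MEF. The overlap of the members was not tested, and the cell types were measured on different array platforms. With the second WT series added and no series term, the members called in MEF were 11 at 8 h, and none at 3 h or between 3 and 8 h.

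With IFNb for 8 h, on 1 array against 1 of WT MEF, no member was at least 2-fold lower (0.944% of genes were). Of 28 members 25 were below 0, with a median of -0.24, against -0.10 over all genes. Insig1 was at 9.79 and 8.85 and Lss at 10.96 and 10.88.

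**Figure D5:**
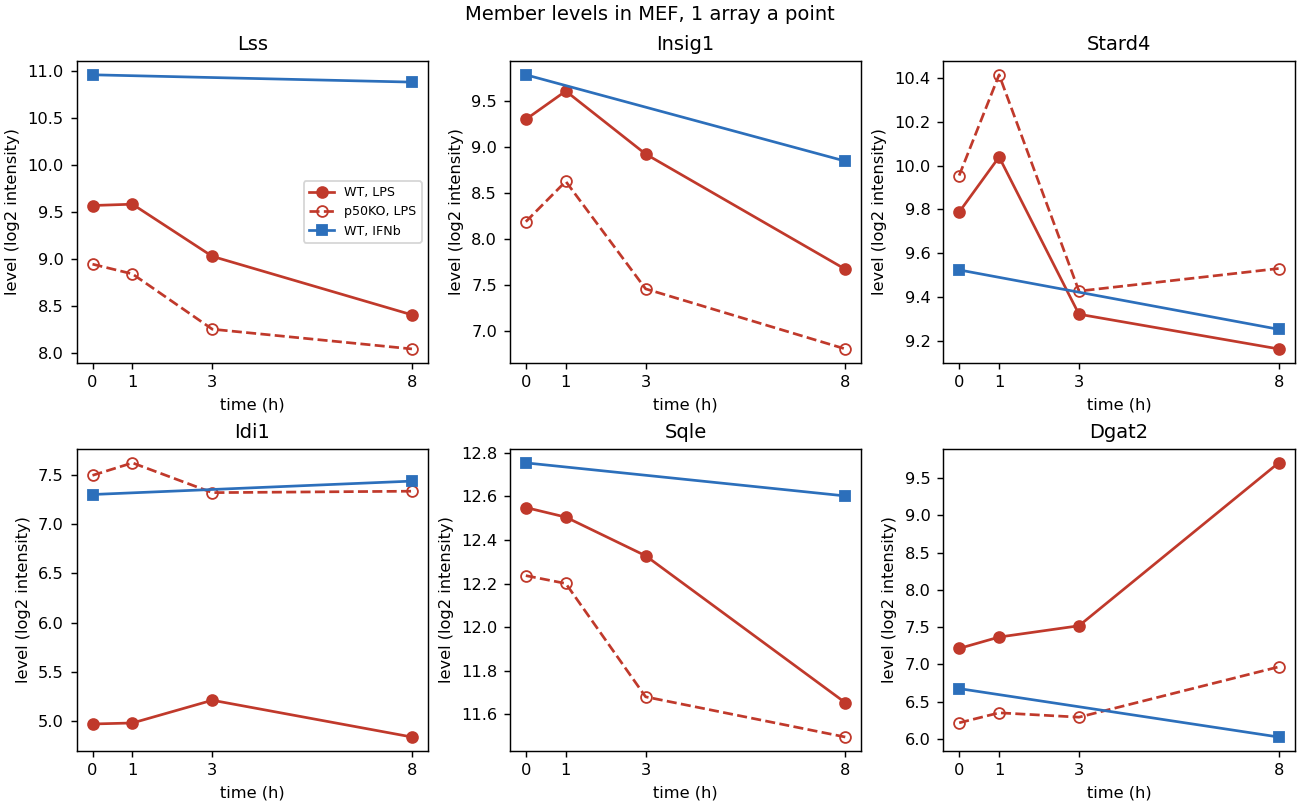
Levels (normalized log2 intensity, vertical axis) of 6 members in MEF against time (h, horizontal axis), 1 array a point, for WT and p50KO cells with LPS and WT cells of the second series with IFNb; each panel has its own axis range. Lss and Insig1 descend with LPS in both genotypes, and the WT LPS arrays of Idi1 lie at 4.84 to 5.21 while all other arrays are at 7.30 to 7.62.

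Between p50KO and WT MEF most genes on the arrays differed: 33.8% were higher and 40.6% lower in p50KO. The members were 8 higher and 16 lower of 28. Against shares this large, their counts are not a result about the members. Idi1 was at 4.84 to 5.21 on the 4 WT arrays, on none of which it was above background, and at 7.32 to 7.62 in p50KO, at least 2.38-fold higher. On the 2 WT arrays of the IFNb series Idi1 was at 7.30 and 7.44, within reach of the p50KO arrays. Fasn differed by 1.38 ± 0.09, Dgat2 by -1.50 ± 0.28 and Insig1 by -1.11 ± 0.11. The WT LPS arrays also detected the fewest probes, and with the second WT series added 3 members were higher and 12 lower. The detected probes of Nsdhl differed in sign in this comparison, and so did those of Acaca.

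The neighbouring steps of sterol handling were read from lists chosen for their roles. In BMDM at 8 h of LPS, 3 of 6 genes of oxysterol synthesis and sterol sensing rose and 1 fell, where 12.3% of all genes rose and 18.2% fell. Ch25h, which makes 25-hydroxycholesterol, rose by 3.40 ± 0.68, Nr1h3, the oxysterol receptor LXR alpha, by 1.78 ± 0.57, and Insig2 by 0.79 ± 0.28, whereas Mbtps1, the protease that makes the first cut of SREBP in the Golgi, fell by 0.80 ± 0.24. Ch25h had already risen by 2.51 ± 0.68 at 3 h, when 5.91% of genes rose. With IFNb no gene of this list passed the test against unstimulated cells at 1, 3 or 8 h. Set directly against IFNb at 8 h, Ch25h was higher with LPS by 4.49 ± 0.54, where 17.4% of genes were higher. Of 4 LXR target and efflux genes 1, Abcg1, was lower with LPS than with IFNb at 8 h (-1.04 ± 0.27). There 24% of genes were lower, so that this count is near the share of all genes. At 8 h of LPS against unstimulated cells none of the 4 passed.

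Of 8 uptake, trafficking and storage genes Stard3, a late endosomal sterol carrier, rose by 2.06 ± 0.38, while Nceh1, a cholesteryl ester hydrolase, fell by 1.05 ± 0.23 and Scarb1, the HDL receptor SR-B1, was at least 1.61-fold lower (adjusted p = 0.0365). Of 3 genes in mevalonate branches Fntb, the farnesyltransferase subunit, fell by 1.13 ± 0.26. Of 15 fatty acid neighbours 3 fell, where 18.2% of all genes did. The counts of the uptake and the fatty acid lists are near the shares of all genes and not a result about those lists. Pparg, a lipid-sensing nuclear receptor, fell by 3.06 ± 0.50, and the elongases Elovl5 and Elovl1 fell by 1.36 ± 0.25 and 0.99 ± 0.24.

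In MEF at 8 h 3 of 6 genes of oxysterol synthesis and sterol sensing rose and none fell, where 12.6% of all genes rose and 23.8% fell. Ch25h rose by 4.32 ± 0.19, Cyp7b1, an oxysterol hydroxylase, by 2.40 ± 0.27 and Insig2 by 1.10 ± 0.21. Of 4 LXR target and efflux genes 1 rose, the cholesterol exporter Abcg1, by 1.24 ± 0.15. Of 7 uptake, trafficking and storage genes 4 rose, among them Lipa, the lysosomal acid lipase, by 1.15 ± 0.10, and Scarb1 fell by 0.61 ± 0.11. Both genes measured in mevalonate branches fell, Fntb by 0.75 ± 0.13 and Dhdds, a subunit of the dolichol-making prenyltransferase, by 0.57 ± 0.10. Of 10 fatty acid neighbours 2 rose, Acsl4 and Pnpla2, and 3 fell, Elovl5, Slc25a1 and Plin2. These counts are near the shares of all genes and not a result about that list.

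On the LPS arrays of BMDM, Ch25h was higher in p50KO than in WT by 2.08 ± 0.27 and Stard3 by 0.96 ± 0.22, where 3.6% of genes were higher. Pparg was lower by 1.25 ± 0.17 on the log2 scale, a set of differences to which the limit on labelled times applies equally.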

How the data were processed

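RNA of mouse bone marrow-derived macrophages and primary embryonic fibroblasts was measured on Illumina MouseRef-8 arrays, on a different platform for each cell type. The authors deposited, without normalization, linear probe intensity values, and beside each a detection p-value against the array's negative controls, per the file headers. The authors also deposited normalized intensity values, used here as an alternative with values under 16 set to 16; how they were normalized was not given in the sources used here. BeadStudio was used, per the submitters' processing notes.

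From the unnormalized intensities, background was corrected by normexp (limma, offset 16, negative controls inferred from the detection p-values). Quantile normalization and log2 followed, for each cell type apart. Genes entered the tests through probes detected (p under 0.01) on 2 or more arrays, each gene by its brightest such probe, and symbols were updated through the RefSeq gene table of GRCm38.p6. Of the columns of values per sample, 0 were left unused. The number of arrays limits the precision.

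Tests were two-sided limma fits (lmFit and eBayes, limma 3.58.1, R 4.3.3) with Benjamini-Hochberg adjustment over all genes tested. The BMDM fit held condition, genotype and array series (CpG-labelled arrays against LPS- and IFNb-labelled ones). Each response is thus set against the unstimulated cells of its series and is a mean over both genotypes. For LPS and IFNb the unstimulated side was 1 WT array, with p50KO covered only by the genotype term. The p50 difference by agent averages 1, 3 and 8 h. Its error is pooled over the WT and p50KO BMDM arrays of all agents, and does not measure the spread over that agent's times alone. The MEF fit held condition and genotype on the 8 LPS-labelled arrays. The comparisons of LPS with CpG, of 8 h with 3 h, and of p50 differences between agents were added after the data were seen. Differences of 1 array against 1 had no test and are described at 2-fold. Only the fits of p50KO against WT over all conditions and of LPS at 8 h, in each cell type, were tested on simulated data. The p50 differences by agent and the IFNARKO comparison were not. Figures used Python 3.11.15 and matplotlib 3.10.9.

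The members and the gene lists were chosen with earlier results of these data known. Levels on every array are printed for the 12 members called in most comparisons, called members are named up to 10 per comparison by size, and called genes of the neighbouring lists up to 4 per list. Values of other members were added to show a pattern and were chosen after they were seen.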

Additional observations from a re-analysis of the deposited data

Results flagged for a closer look

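The difference between p50KO and WT macrophages was itself different with CpG and with LPS for Mvd, by 1.29 on the log2 scale, Hmgcs1, by 1.22, and Fdps, by 1.18, by the test of that difference, each higher with CpG. The unstimulated p50KO array of the CpG series was already above its WT array by 0.96, 0.68 and 0.66 for these genes. The LPS side rests on the 3 p50KO arrays whose labelled times are in doubt, and the CpG and LPS arrays were separate series, so that agent and series cannot be told apart. Scd1 passed the same test, at 2.17 against LPS and 2.16 against IFNb, but it was not above background on any LPS or IFNb array of these genotypes, and the values restate its difference on the CpG arrays.

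In fibroblasts the response to LPS differed between 8 h and 3 h for 11 members, each lower at 8 h, where 7.28% of genes were lower. With the second WT series added and no series term, no member passed between 3 and 8 h. The log2 differences were -0.69 for Hmgcs1 and -0.62 for Pmvk, mevalonate enzymes, and -0.63 for Tm7sf2 and -0.85 for Hsd17b7, sterol enzymes. They were -0.95 for Insig1, and -0.78 for Fasn, -0.84 for Elovl6, -0.91 for Scd1, -0.66 for Scd2, -0.86 for Fads1 and -0.80 for Fads2 among the fatty acid genes.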

How the results depend on the processing

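Each group had 1 array a condition, which limits every value. Of 1028 values of members called, recomputed under the alternatives, 870 kept their call, 157 lost it and 1 reversed: Acaca in p50KO against WT MEF, 0.35 with the mean of its probes. Other counts of members called stayed within 1.5 times. Those that did not follow, and the cause was not tested. They are given without the share of all genes called under the same setting, which may have changed as well. With no series term, the counts were 4 for LPS at 1 h, 21 at 3 h and 21 at 8 h, 4 for LPS against IFNb at 3 h, 22 and 23 for LPS against CpG at 3 and 8 h, 0 for the p50 difference between CpG and IFNb, and 2 for IFNARKO. In the authors' values they were 5 for LPS at 3 h, 2 for LPS against IFNb at 3 h, 7 for p50 with CpG, and 7 and 2 for the p50 difference of CpG against LPS and IFNb. With no filter they were 2 for LPS at 3 h, 2 for LPS against IFNb at 3 h and 0 for LPS against CpG at 8 h; with a stricter detection filter 0 for the p50 difference of CpG against IFNb; with the mean of probes 8 for that of CpG against LPS. Leaving out the 3 p50KO LPS arrays gave 1 for p50 over all conditions (1 also without all LPS arrays), 2 for IFNb at 3 h, 4 for LPS against IFNb at 3 h, 6 and 15 for LPS against CpG at 3 and 8 h, 7 for LPS at 8 h against 3 h, 12 for p50 with CpG (12 without all LPS arrays), 5 for its difference from IFNb, and 10 for IFNARKO. Without the 1, 3 or 8 h arrays, p50 with CpG gave 1 each time, p50 with LPS gave 2, 0 and a count within 1.5 times, and their difference gave 0, 0 and 1. Without the CpG-labelled arrays LPS against IFNb at 3 h gave 1. Without the unstimulated WT array of the CpG series, LPS against IFNb at 3 h gave 4 and LPS against CpG at 8 h gave 0. Responses to LPS or IFNb against unstimulated cells, and LPS against CpG, could not be fitted without the unstimulated array of the LPS series. With the second WT series in MEF, the counts were 15 for p50, 0 for LPS at 3 h, 11 at 8 h and 0 between them. No paired analysis was possible because the labels give no replicate numbers.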
